A study of Mus musculus with 26 samples.

Results

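All sorted cells of P7 mouse spinal cord were compared with all sorted cells of P7 mouse brain, without first selecting precursors. The comparison took the spinal cord chips numbered 10, 11, 12 and 26 and the brain chips numbered 21 and 22, which are 6 of the 26 chips of the series. Wells with at least 1000 molecules outside mitochondrial, spike-in and marker rows were kept as cells, which gave 319 of the 1514 wells kept in the whole series. Of these, 211 came from spinal cord (57, 70, 57 and 27 on chips 10, 11, 12 and 26) and 108 from brain (59 and 49 on chips 21 and 22). The study followed *Pdgfra*+ cells of the forebrain and spinal cord from E13.5 to P7 by single-cell RNA-seq. The mice of both groups were of the *Pdgfra*-H2BGFP strain, in which a nuclear green fluorescent protein is knocked in at the *Pdgfra* locus (75152292 to 75198215 on chromosome 5 of GRCm38). The study reports animals of both sexes for this strain as a whole, not for each group. RNA of *Xist* or *Tsix*, which marks female cells, was found in 1 of 211 spinal cord wells and in 42 of 108 brain wells. RNA of Y-linked genes was found in 137 and 26 wells. GFP-positive cells were sorted from papain-dissociated tissue, loaded into the 96 wells of Fluidigm C1 chips and sequenced by STRT-seq, which tags each captured mRNA so that molecules rather than reads are counted. The knock-in replaces *Pdgfra* on 1 allele in the heterozygous animals, and the stable nuclear GFP persists for a time after *Pdgfra* itself is switched off, so the gate also holds cells that have begun to differentiate and any other cell type with *Pdgfra*.

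Oligodendrocyte precursor cells (OPCs) divide, carry the receptor for platelet-derived growth factor and can differentiate through committed precursors into myelin-forming oligodendrocytes. Myelination starts earlier in the spinal cord than in the forebrain. Neural cells of the trunk carry Hox transcription factors, which mark position along the head-to-tail axis.

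The 4 spinal cord chips held 293484, 398533, 243009 and 89363 molecules and the 2 brain chips 159159 and 114142. Spinal cord wells were deeper, with chip medians of 2978 to 5849 molecules and 1523 to 2572 genes per well, against 2106 to 2852 molecules and 1073 to 1316 genes in brain (two-sided exact permutation p = 0.133 for molecules and 0.0667 for genes, where 0.0667 is the smallest that 4 against 2 chips allow). Spike-in molecules went the other way, with chip medians of 59 to 81 per well in spinal cord and 166 to 204 in brain. The spinal cord chips came from 1 experiment and the brain chips from another, with another style of column names, so region and experiment cannot be told apart in these 6 chips. Between E13.5 brain chips of the 2 styles, 187 of 4265 genes (4.38%) passed the same test. Of the 442 genes called between spinal cord and brain, 300 were tested there, and 33 were called in the same direction. Nothing in the labels says that chips of 1 experiment came from separate cell suspensions, so p-values measure the spread between chips, which may be technical. Chip 23, labelled P7 spinal cord as well, was left out. It came from another experiment, and 13 of its 14 wells held a set of meningeal fibroblast genes. Chip 9 was left out too, since its label gives P7 spinal cord and its deposited name E13.5 spinal cord.

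Of 5552 genes tested by edgeR's quasi-likelihood test, 442 (7.96%) had an adjusted p under 0.05, 234 higher in spinal cord (4.21%) and 208 lower (3.75%). Chips of the 2 groups did not overlap for 437 of the 442, and for 1909 of all genes tested (34.4%). All adjusted p below come from this test, and all fold changes are log2 differences of spinal cord minus brain with their standard error (SE). Levels are molecules of the gene in every 1000000 molecules of the chip (CPM), given in the chip order 10, 11, 12, 26 for spinal cord and 21, 22 for brain. In such sums, fewer cells of a type and less RNA per cell cannot be told apart. When chip 23 was added to the spinal cord group, 1 gene was past the threshold. With the column style as a covariate, over all chips of the strain (here and below without chips 9 and 23), 72 of 7381 (0.975%) were. Of these, 32 had the direction of a call among the 442. In that fit the effect of the style comes from the E13.5 brain chips alone, where genes of later stages were near 0. *Mbp* had 13 molecules there, and *Mag* and *Mobp*, with none, got no usable value. In that fit 3 genes of the myelin, precursor and committed precursor lists were past the threshold. *Cldn11* was higher (4.77) as here, whereas *Gpr17*, lower here, was higher (4.17, adjusted p = 0.0047), and *Sox8*, not called here, was higher (3.59, adjusted p = 0.035). Among the other called genes named here, those that turned sign there, without a call, were *Mbp* (-2.32, SE 2.262, adjusted p = 0.72), *Nfasc* (-0.76, SE 0.965, adjusted p = 0.78), *Pdgfra*, *Cspg4* (2.64, SE 0.823, adjusted p = 0.12), *Cd9* (0.01, SE 0.292) and *Fdps* (-5.72, SE 2.006, adjusted p = 0.17). With chip 23 added, *Col1a2* (1.19), *Gja1* (1.07) and *Egr1* (0.86) did so among them. Without brain chip 21 or brain chip 22 the count was 135 or 190, and without spinal cord chips 10 or 11 it was 294 or 279.

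**Figure D1:**
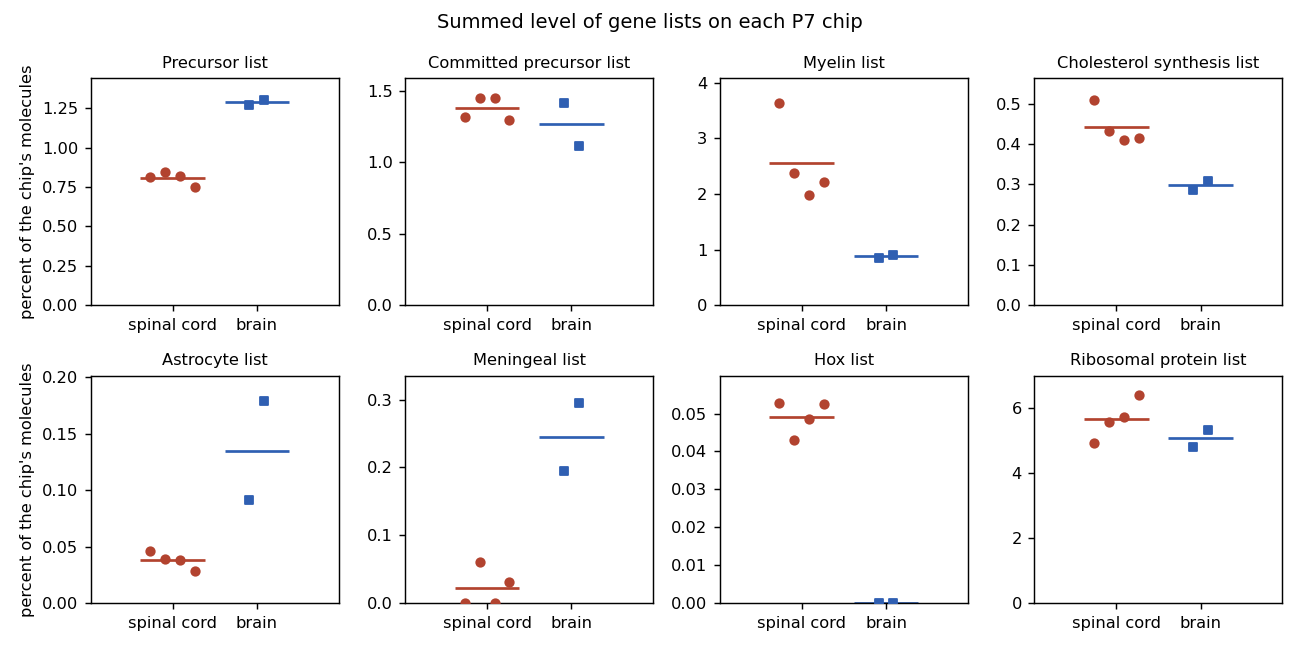
Summed level of 8 gene lists on each P7 chip, as a percent of the molecules of the chip. Circles are the 4 spinal cord chips (in the order 10, 11, 12, 26), squares the 2 brain chips (21, 22), and lines the group means. The myelin list lay between 1.98% and 3.64% in spinal cord and at 0.852% and 0.909% in brain, and the precursor list lay lower in spinal cord.

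Genes of new and myelin-forming oligodendrocytes were higher in spinal cord, 10 of the 24 tested against 4.21% of all genes. Of 36 genes on this list, 24 were tested, 10 were higher (among them *Mbp*, *Cnp*, *Mag*, *Mobp*, *Cldn11*, *Enpp6*, *Qk*, *Nfasc* and *Tmem88b*), none was lower and 14 did not pass. At an unadjusted p under 0.05, 15 were higher and none lower, and DESeq2 called 10 higher (of all genes, 2.03%) and none lower. The median difference over the 24 was 1.19, against -0.001 over all genes tested, and 23 of the 24 were positive. *Mobp* and *Mal*, with no molecule in brain, passed the filter on low counts through spinal cord alone and could only come out higher. The counts of higher and positive genes therefore follow in part from this filter. Together the 36 genes made up 3.64%, 2.38%, 1.98% and 2.21% of the molecules of the spinal cord chips and 0.852% and 0.909% of those of the brain chips.

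*Mbp*, which encodes myelin basic protein and compacts the myelin sheath, was at 5465, 5124, 3485 and 4040 CPM in spinal cord and at 679 and 1016 CPM in brain (2.42, SE 0.238, adjusted p = 1.1e-05). *Cnp*, a phosphodiesterase of the oligodendrocyte cytoplasm, was at 1963, 1942, 1576 and 1589 CPM against 704 and 780 CPM (1.25, SE 0.192, adjusted p = 7.8e-04). The groups did not overlap for either gene, and all 4 spinal cord chips lay above both brain chips.

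*Mag* encodes an adhesion protein of the inner myelin membrane. It was at 1411, 369, 263 and 515 CPM in spinal cord and at 18.9 and 149 CPM in brain (3.09, SE 0.734, adjusted p = 0.017). It was not past the threshold without brain chip 21 (2.16) or by DESeq2 (2.96, adjusted p = 0.12). *Cldn11*, a tight junction protein of myelin, was at 1475, 856, 568 and 593 CPM against 138 and 272 CPM (2.15, adjusted p = 0.0041), and without brain chip 21 the call was lost (1.75). *Nfasc*, whose glial form anchors myelin beside the nodes of Ranvier, was at 1653, 1902, 1683 and 2775 CPM against 383 and 578 CPM (2.05, SE 0.262, adjusted p = 1.4e-04). *Qk*, an RNA-binding protein of myelinating cells, showed a smaller difference, from 2978, 3269, 3259 and 3066 CPM to 1709 and 1831 CPM (0.82, SE 0.162, adjusted p = 0.0060), and was not past the threshold without brain chip 21 (0.81).

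The genes of the latest stage were carried by few wells, above all on chip 10. *Mobp*, a myelin protein gene, was at 637, 120, 16.5 and 56.0 CPM in spinal cord, with no molecule in brain. Over the group it was at least 21.7-fold higher (adjusted p = 0.047), counted against 3 molecules over both brain chips, as are all such bounds. Without chip 10 the bound was 7.11-fold. *Mobp* lost the call without brain chip 21 (adjusted p = 0.19) or 22 (adjusted p = 0.14), and was too low for the test without chip 10 or 11. Of the 187 *Mobp* molecules of chip 10, 127 lay in 1 well and 178 in 3. *Mal*, which carries lipids and proteins into myelin, was at 1046, 7.53, 8.23 and 56.0 CPM with none in brain, and did not pass the test (adjusted p = 0.13). Of its 307 molecules on chip 10, 305 lay in 3 wells. *Mog*, a marker of mature oligodendrocytes, had 148 molecules in 24 of 211 spinal cord wells and none in 108 brain wells, which allows up to 2.78% of wells with a molecule there and sets no limit on cells that use the gene. Thinned, it was in 0% to 3.51% of spinal cord wells per chip (exact permutation p = 0.333). *Opalin* had 14 molecules in 2 wells, both on chip 10, and *Klk6*, a marker of a mature oligodendrocyte state, had none on any of the 6 chips. *Mog*, *Opalin* and *Klk6* were too low for the test. Without chip 10, 20 genes of the list were tested and 10 called, and *Mobp* was then too low for the test.

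Other members did not pass the test. *Ugt8a*, which makes the myelin lipid galactocerebroside, was at 1608, 926, 881 and 593 CPM in spinal cord and at 490 and 666 CPM in brain (0.82, SE 0.305, adjusted p = 0.11). *Tspan2*, a tetraspanin of early myelinating cells, was at 531, 166, 103 and 134 CPM against 88.0 and 52.6 CPM (1.74, SE 0.635, adjusted p = 0.10). *Enpp2*, the enzyme autotaxin, was at 1516, 916, 1099 and 582 CPM against 1181 and 1016 CPM (-0.08, SE 0.262, adjusted p = 0.89), so that the groups overlapped. *Gjc3* gave 1.00 (SE 0.324, adjusted p = 0.070). *Trf*, the iron carrier transferrin, gave 1.22 (SE 0.884, adjusted p = 0.43), and -0.51 (adjusted p = 0.60) without chip 10. Of its 27 brain molecules, 24 lay in the 9 brain wells that held meningeal genes, and without such wells its difference was 4.24 (SE 1.286, adjusted p = 0.044).

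**Figure D2:**
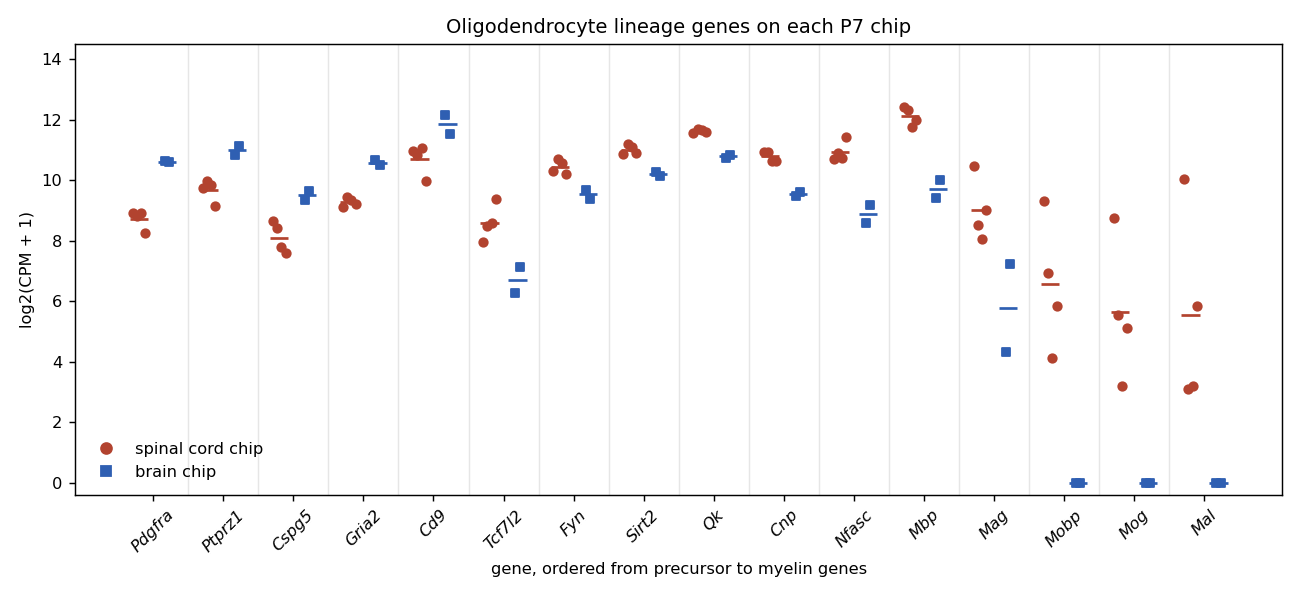
Levels of oligodendrocyte lineage genes on each P7 chip, as log2(CPM + 1). Circles are the 4 spinal cord chips, squares the 2 brain chips, and lines the group means. The genes were chosen for display and put in this order by hand. Among those shown, the spinal cord chips lie lower from *Pdgfra* to *Cd9* and higher from *Tcf7l2* on. For *Mobp*, *Mog* and *Mal* both brain chips are at 0. Of list members not shown, *Cntn1*, *Bmp4* and *Enpp2* overlapped between the groups, and *Gpr17*, of committed precursors, was lower in spinal cord (-0.64).

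The promoters of 3 called myelin genes, *Cnp*, *Mag* and *Mobp*, are shown because these genes moved together and hold matches to motifs of factors of oligodendrocyte differentiation. Sequences are the 250 bases before the transcription start in RefSeq (GRCm38.p6), 5′ to 3′ on the strand of the gene, with matches to ACAAAG, a core bound by SOX factors, or to CTGGCAC, a core bound by MYRF, in capitals on either strand (CTTTGT and GTGCCAG are their reverse complements). The *Cnp* window is chr11:100574689-100574938 on the plus strand, the *Mag* window chr7:30914864-30915113 on the minus strand and the *Mobp* window chr9:120149492-120149741 on the plus strand.
Cnp: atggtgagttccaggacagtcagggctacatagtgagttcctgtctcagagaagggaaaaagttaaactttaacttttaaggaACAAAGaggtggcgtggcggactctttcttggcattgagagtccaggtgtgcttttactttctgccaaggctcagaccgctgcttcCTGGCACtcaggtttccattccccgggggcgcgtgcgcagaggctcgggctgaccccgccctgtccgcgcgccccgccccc
Mag: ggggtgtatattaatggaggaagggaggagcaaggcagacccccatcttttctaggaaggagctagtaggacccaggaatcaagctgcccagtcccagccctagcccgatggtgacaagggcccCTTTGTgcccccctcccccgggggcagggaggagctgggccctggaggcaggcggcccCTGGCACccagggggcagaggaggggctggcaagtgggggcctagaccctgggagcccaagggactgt
Mobp: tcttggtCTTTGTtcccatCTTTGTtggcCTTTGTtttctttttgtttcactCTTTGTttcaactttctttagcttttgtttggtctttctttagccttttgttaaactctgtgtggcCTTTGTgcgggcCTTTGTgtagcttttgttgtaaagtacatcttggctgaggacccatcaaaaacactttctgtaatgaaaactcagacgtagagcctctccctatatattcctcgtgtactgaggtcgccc
Of the 10 called myelin genes, 8 had an entry. ACAAAG was found in 3 of the 8 and in 16.5% of 27025 promoter windows of the same length, and CTGGCAC in 2 of the 8 and in 4.14% of all windows. Over the 26 list members with an entry, 5 (19.2%) held ACAAAG and 3 (11.5%) CTGGCAC. The motifs do not overlap each other, and a match describes letters only. These genes were picked for display after their matches had been seen.

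Part of the genes of OPCs was lower in spinal cord. All 20 genes of the precursor list were tested, 7 were lower (*Pdgfra*, *Cspg4*, *Ptprz1*, *Pcdh15*, *Sox5*, *Cspg5* and *Gpr37l1*), none was higher and 13 did not pass, with a median of -0.53 (3.75% of all genes were lower). At an unadjusted p under 0.05, 11 were lower and none higher, and DESeq2 called 6 lower (of all genes, 2.06%) and none higher. With all chips of the strain in 1 fit, 1 of the 20 was lower, where 97 of 7381 genes were. The list made up 0.812%, 0.847%, 0.819% and 0.753% of the molecules in spinal cord and 1.27% and 1.31% in brain.

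*Pdgfra* encodes the receptor for platelet-derived growth factor A, the mitogen of OPCs, and drives the GFP of the sort. Its levels were 484, 447, 481 and 302 CPM in spinal cord and 1577 and 1533 CPM in brain, a difference of -1.84 (SE 0.190, adjusted p = 1.5e-05). Both brain chips lay above every spinal cord chip. Between the 2 experiments of E13.5 brain the same gene also differed, with a log2 difference of -2.46 for newer minus older chips (SE 0.470, adjusted p = 0.0030), and in the fit that took the column style as a covariate the P7 difference was 0.61 (SE 0.512, adjusted p = 0.64).

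Some receptor and matrix genes of precursors were also lower. *Ptprz1*, a receptor phosphatase for pleiotrophin and matrix proteoglycans, was at 852, 1009, 918 and 559 CPM in spinal cord and at 1828 and 2252 CPM in brain (-1.27, SE 0.196, adjusted p = 8.0e-04). *Cspg5*, a membrane proteoglycan, was at 399, 339, 218 and 190 CPM against 647 and 797 CPM (-1.28, SE 0.258, adjusted p = 0.0065), and *Pcdh15*, a protocadherin of OPCs, was at 201, 138, 173 and 112 CPM against 415 and 421 CPM (-1.39, SE 0.264, adjusted p = 0.0045). With the column style as a covariate *Ptprz1* was at -0.1 (SE 0.540, adjusted p = 0.97) and *Pcdh15*, with 12 molecules in E13.5 brain, at -0.03 (SE 1.136). Without brain chip 22 *Cspg5* was not past the threshold (-1.08), and without brain chip 21 *Pcdh15* was not (-1.35). On the list of lecticans and related proteoglycans 4 of 9 tested genes were lower (*Cspg4*, *Cspg5*, *Ptprz1* and *Sdc3*) and none higher, with a median of -0.72 (3.75% of all genes were lower). *Cspg4*, *Cspg5* and *Ptprz1* are also on the precursor list, so this is not a separate result. *Cspg4*, which encodes the NG2 proteoglycan, passed by little (-0.87, SE 0.261, adjusted p = 0.0497) and lost the call without any single chip other than chip 26 (-0.89 to -0.73). *Sdc3*, a syndecan, was at 371, 464, 473 and 369 CPM against 823 and 789 CPM (-0.94, SE 0.194, adjusted p = 0.0073), and lost the call without brain chip 21 (-0.86) or 22 (-0.93).

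Several genes that OPCs share with later stages did not pass. *Olig1*, a lineage transcription factor, was at 896, 956, 1016 and 750 CPM in spinal cord and 1162 and 1253 CPM in brain (-0.42, SE 0.177, adjusted p = 0.16). *Bcan*, the lectican brevican, gave -0.55 (SE 0.198, adjusted p = 0.10). *Cntn1*, an adhesion protein, was at 886, 1039, 1177 and 739 CPM against 949 and 1156 CPM (-0.13, SE 0.198, adjusted p = 0.75), with overlapping groups.

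Genes of committed precursors were split. Of 16 genes 15 were tested, 7 were higher in spinal cord (*Fyn*, *Tcf7l2*, *Itpr2*, *Pdcd4*, *Tns3*, *Sirt2* and *Kif21a*), 2 were lower (*Gpr17* and *Cd9*) and 6 did not pass, with a median of 0.81 (of all genes 4.21% were higher and 3.75% lower). Of the 15, 1 was called without brain chip 21, 1 higher and 2 lower without wells that held sets of 2 cell types, and none with all chips of the strain in 1 fit. The summed levels overlapped, at 1.30% to 1.45% in spinal cord and 1.12% and 1.42% in brain. *Tcf7l2*, a transcription factor of differentiating oligodendrocytes, was at 245, 359, 383 and 660 CPM against 75.4 and 140 CPM (1.89, SE 0.408, adjusted p = 0.0099). *Fyn*, a kinase that starts local *Mbp* translation, gave 0.91 (SE 0.198, adjusted p = 0.010) and *Sirt2*, a deacetylase of the myelin membrane, 0.81 (SE 0.176, adjusted p = 0.010). *Cd9*, a tetraspanin, was at 1980, 1812, 2136 and 1007 CPM against 4574 and 2935 CPM (-1.11, SE 0.229, adjusted p = 0.0073). *Gpr17*, a receptor of committed precursors, was at 2007, 2085, 2243 and 1701 CPM against 3858 and 2357 CPM (-0.64, SE 0.189, adjusted p = 0.046), and held the call without brain chip 22 but lost it without any other chip (-0.68 to -0.19). Against the traced brain chips described next it gave -0.1 (adjusted p = 0.79). *Gpr17*, *Cldn11* and *Sox8* were chosen for display after their values had been seen. Without brain chip 21, the calls of *Tcf7l2* (1.5), *Sirt2* (0.92) and *Cd9* (-0.71) were lost, and without brain chip 22 those of *Fyn* (0.81) and *Sirt2* (0.79). *Bmp4*, a secreted factor of committed precursors, was at 371, 299, 296 and 257 CPM against 320 and 210 CPM (0.19, SE 0.264, adjusted p = 0.72). *Neu4*, a sialidase, gave -0.65 (SE 0.290, adjusted p = 0.18), and *Bcas1*, which marks early myelinating cells, gave 0.69 (SE 0.216, adjusted p = 0.059).

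The brain values were also compared with 9 chips of P7 brain cells traced with another reporter (*Pdgfra*-CreERT crossed to RCE), whose columns have the newer style. Recombination had been induced with tamoxifen at E12.5 for 6 of these chips and at P3 for 3, and the fit pooled them. With these chips in place of the 2 brain chips, 295 of the 425 calls that could be tested were past the threshold in the same direction, and 14 had the opposite sign, where 15.9% of all genes were called. *Mbp* ran from 506 to 1596 CPM (median 1038 CPM) on the E12.5 chips and from 83.2 to 442 CPM (median 293 CPM) on the P3 chips. *Pdgfra* ran from 1282 to 2667 CPM (median 1488 CPM) on the E12.5 chips and from 2421 to 2865 CPM (median 2510 CPM) on the P3 chips. Against them the spinal cord differed by 2.46 (SE 0.400, adjusted p = 1.5e-04) for *Mbp* and by -2.23 (SE 0.240, adjusted p = 3.2e-06) for *Pdgfra*. By contrast, *Cd9* gave -0.14 (SE 0.226, adjusted p = 0.76) against the traced chips. The spinal cord values are the same in both comparisons, so these do not stand as separate evidence.

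The share of wells with a molecule of a gene depends on the depth of a well and the level in each cell as well as on the number of cells that use the gene. Because spinal cord wells were deeper, every well was also thinned to 1000 molecules, which left out no well. Thinned, *Mag* was seen in 17.5%, 12.9%, 15.8% and 25.9% of wells against 1.69% and 6.12% (unthinned means, 33.5% and 7.82%). Thinned, *Pdgfra* was seen in 38.6%, 35.7%, 28.1% and 18.5% of wells against 57.6% and 61.2% (unthinned means, 51.7% and 71.7%).

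The chips of the 2 regions did not overlap for 7 of the 12 genes after thinning. These 12 were chosen as markers, and the same share over all genes was not counted for thinned wells. In CPM, 34.4% of all genes tested did not overlap. *Mag*, *Bmp4* and *Hoxc8* were higher and *Pdgfra* lower in spinal cord, each with an exact permutation p of 0.0667, the smallest possible. *Ptprz1* (p = 0.267), *Gpr17* (p = 0.2) and *Col1a2* (p = 0.133, all by the same exact permutation test) lay lower on all 4 spinal cord chips. Unthinned, *Mag*, *Bmp4*, *Tspan2* and *Hoxc8* reached that value (0.2 after Benjamini-Hochberg adjustment over 12 genes), so no share could pass 0.05. In the 12 wells of these chips that held meningeal genes (median 3104 molecules), *Pdgfra* was seen in 7, *Gpr17* in 3 and *Mag*, *Bmp4*, *Neu4* and *Mog* in none. *Gpr17* was seen in 84.4% and 85.7% of wells on average, and thinned in 63.2% and 77.6%. *Ptprz1* gave a difference of 1.09 percentage points before thinning (exact permutation p = 1.0) and -14.4 after it.

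**Figure D3:**
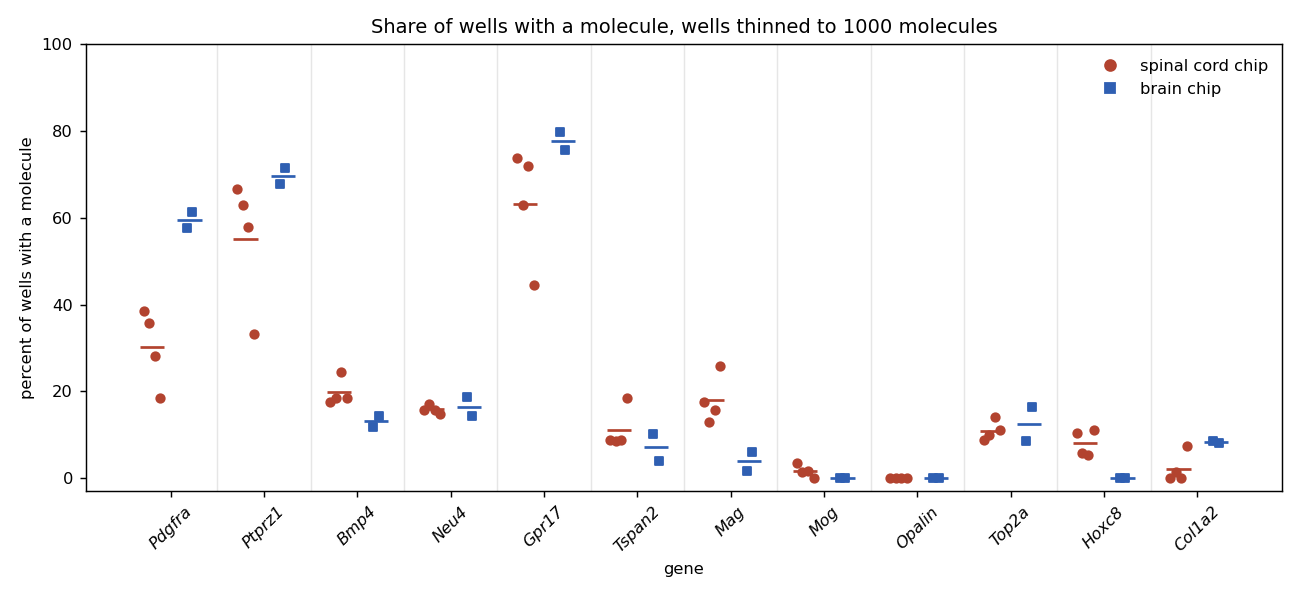
Share of wells with at least 1 molecule of 12 genes, per chip, after thinning each well to 1000 molecules. Circles are the 4 spinal cord chips, squares the 2 brain chips, and lines the group means. *Pdgfra* wells are fewer on every spinal cord chip (18.5% to 38.6%) than on the brain chips (57.6% and 61.2%), and *Mag* wells are more.

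No difference in genes of cell division passed the test, where 7.96% of all genes did. Of 23 genes of the cell cycle list, none was called in either direction by edgeR or by DESeq2 (median 0.44), while 4 were higher and 1 lower at an unadjusted p under 0.05, and 2 were called higher without a filter on low counts (2.74% of all genes then). *Top2a*, which untangles DNA in dividing cells, was at 181, 191, 280 and 291 CPM in spinal cord and 182 and 333 CPM in brain (-0.16, SE 0.315, adjusted p = 0.81), with overlapping groups. It was seen in 22.1% ± 4.83 (SD, n = 4) of spinal cord wells and 16.1% ± 6.04 (SD, n = 2) of brain wells, and after thinning in 11.0% and 12.4%.

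Genes of cholesterol synthesis, which supplies the lipid of myelin, included 3 of 21 tested that were higher in spinal cord, where 4.21% of all genes were, with a median of 0.57. None was lower and 18 did not pass, and at an unadjusted p under 0.05, 8 were higher and 1 lower, while DESeq2 called 3 higher and none lower. *Insig1*, a sterol-sensing protein that restrains the pathway, was at 153, 193, 193 and 157 CPM in spinal cord and at 37.7 and 35.0 CPM in brain (2.24, SE 0.398, adjusted p = 0.0029). *Fdps*, an enzyme of isoprenoid synthesis, gave 1.14 (SE 0.322, adjusted p = 0.041). *Hmgcs1* was at 1084, 959, 967 and 548 CPM against 710 and 648 CPM (0.40, SE 0.231, adjusted p = 0.31). Without single chips the count of called members ran from 1 to 4. *Insig1* was called each time, and *Fdps* was not called without chips 10, 21 or 22 (0.93 to 1.26).

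Hox genes set the regions apart without overlap. The 39 Hox genes had 491 molecules on the spinal cord chips, from 32 of the genes, and none on the 2 brain chips, where 3 molecules over both chips would be 11.0 CPM. Of the 211 spinal cord wells 167 held at least 1 Hox molecule (66.7% to 87.1% per chip), and of the 108 brain wells, which were shallower, none did. That allows up to 2.78% of wells with a molecule there, by counting error alone, and sets no limit on cells that use these genes. The 9 chips of traced P7 brain, described above, held 3 Hox molecules in 2 wells.

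The most abundant were *Hoxa7* with 67 molecules (65.4 CPM over the group), *Hoxc8* with 58 (56.6 CPM) and *Hoxa9* with 53 (51.7 CPM). *Hoxc8* was at 61.3, 65.2, 37.0 and 55.9 CPM on the spinal cord chips, which is at least 5.16-fold higher than in brain (adjusted p = 0.013), and was seen in 44 wells. *Hoxa7* was at 61.3, 55.2, 70.0 and 112 CPM, at least 5.96-fold higher (adjusted p = 0.0065). *Hoxa9* was at least 4.71-fold higher (adjusted p = 0.014) and *Hoxa5* at least 3.82-fold higher (adjusted p = 0.038). Of 5 Hox genes tested these 4 were called, and *Hoxa10*, with 32 molecules, was not (adjusted p = 0.087). With no molecule in brain, the 5 passed the filter on low counts through spinal cord alone and could only come out higher. The count of 4 of 5 therefore follows in part from the filter. Without it, 5 of 32 Hox genes were called, where 2.74% of all genes were called higher. Without brain chip 21 none of the Hox genes was called (*Hoxa7*, adjusted p = 0.059), and without spinal cord chip 12 none passed the filter on low counts.

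Genes of the Hoxa cluster gave 237 of the 491 molecules, those of Hoxc 113, Hoxb 97 and Hoxd 44. Since the method counts molecules at their 5′ ends, levels of genes of different length can be set side by side. Within Hoxa, *Hoxa5*, *Hoxa7*, *Hoxa9* and *Hoxa10* were high and *Hoxa6* had 2 molecules, and among paralogs 11 to 13 no gene had more than the 3 molecules of *Hoxd11*. Among neighbours of *Hoxa7* and *Hoxc8*, *Hoxb9* had no molecule, and *Hoxb7* had 24. At E13.5 the order was another one, where *Hoxb3* was at 424 CPM, *Hoxb9* at 407 CPM and *Hoxa5* at 404 CPM as means of 3 spinal cord chips, while *Hoxa7* was at 52.5 CPM. The cells were not alike at the 2 ages. The set of meningeal genes was held by 144 of 209 E13.5 wells and 3 of 211 P7 wells, and the set of neuronal genes by 195 and 52.

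**Figure D4:**
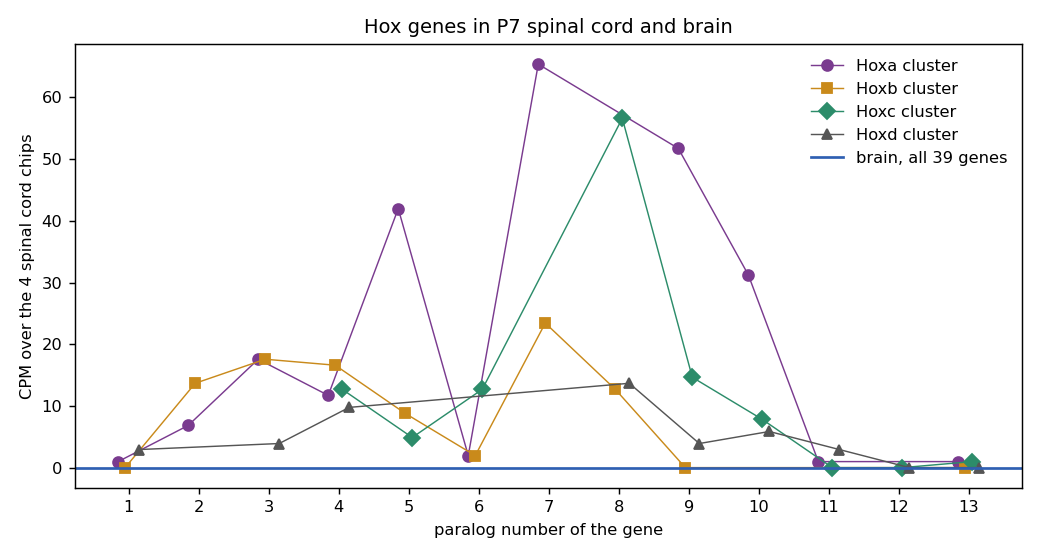
Level of the 39 Hox genes over the 4 P7 spinal cord chips together, in CPM, against the paralog number of the gene, with 1 line for each cluster. The flat line at 0 stands for the 2 brain chips, which held no Hox molecule. *Hoxa7*, *Hoxc8* and *Hoxa9* are highest, at 51.7 to 65.4 CPM.

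Of 25 transcription factors of the forebrain and anterior brain, 3 were tested, and 2 were lower in spinal cord, *Zic1* among them (3.75% of all genes were lower). *Zic1* passed the filter on low counts through the brain chips. *Zic1*, a factor of dorsal neural tissue and meninges, was at 50.3 and 52.6 CPM in brain and had 2 molecules in spinal cord (adjusted p = 0.029), and 13 of its 14 brain molecules lay in the wells with meningeal genes. In the fit with the column style as a covariate it was also past the threshold (-4.85, adjusted p = 8.2e-04). *Nr2f1* gave -0.58 (SE 0.385, adjusted p = 0.38). *Sox9*, a factor of early glial precursors and astrocytes, was at 37.5, 27.6, 28.8 and 56.0 CPM in spinal cord and 226 and 87.6 CPM in brain (-2.25, SE 0.443, adjusted p = 0.0058), and was not past the threshold without brain chip 21 (-1.31). *Sox2* was at 170, 291, 284 and 459 CPM against 201 and 167 CPM (0.61, SE 0.348, adjusted p = 0.31).

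Genes of meningeal fibroblasts were lower in spinal cord, and their brain molecules lay in a few wells. Of 12 meningeal genes 6 were tested, 4 were lower (*Col1a2*, *Dcn*, *Slc6a13* and *Igf2*), none was higher, and the median was -3.49 (3.75% of all genes were lower). DESeq2 called 1 of them, *Slc6a13*, and did not call *Dcn* (adjusted p = 0.39), *Igf2* (adjusted p = 0.53) or *Col1a2* (adjusted p = 0.59). *Dcn* and *Slc6a13*, seen on 1 spinal cord chip, passed the filter on low counts through the brain chips. That no tested gene was higher, and the size of the median, follow in part from this filter. The list made up 0.195% and 0.295% of brain molecules and 0.00034% to 0.0597% of spinal cord molecules. At least 3 molecules from at least 2 of these genes were found in 4 of 59 and 5 of 49 wells of the brain chips and in 3 of 211 spinal cord wells. The 9 brain wells, chosen by these genes, held 10.7% of all brain molecules.

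*Dcn*, the matrix proteoglycan decorin, was at 295 and 517 CPM in brain and at 0, 45.2, 0 and 0 CPM in spinal cord (-4.57, SE 0.622, adjusted p = 3.0e-04). Of its 106 brain molecules 105 lay in the 9 wells, as follows in part from how the wells were chosen. *Slc6a13*, a GABA and taurine transporter of the meninges, was at 113 and 149 CPM in brain with 35 of 35 molecules in these wells, and *Igf2*, a growth factor made by the meninges, was at 811 and 1165 CPM with 253 of 262. *Col1a2*, a collagen chain, was at 295 and 447 CPM with 97 of 98, while *Col3a1* did not pass (-1.94, SE 0.819, adjusted p = 0.16). Chip 11 held 46 of its 47 *Col1a2* molecules in 1 well. *Vtn*, the adhesion protein vitronectin on the mural list, was at 534 and 929 CPM in brain and at 0, 80.3, 0 and 414 CPM in spinal cord (-3.20, SE 0.806, adjusted p = 0.023), with 190 of 191 brain molecules in the 9 wells. *Vtn* was not called by DESeq2 (-2.57, adjusted p = 0.73) or without brain chip 22 (-2.69, adjusted p = 0.14).

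The same wells held many of the genes with the largest negative differences that are not on the meningeal list. All brain molecules of *Cyp1b1*, a cytochrome P450 enzyme (31), *Slc22a6*, an organic anion transporter (23), *Cmbl*, a hydrolase (16), and *Edn3*, a secreted endothelin (41), lay there too. *Cyp1b1*, *Slc22a6* and *Cmbl*, like *Tmem179* below, had no molecule in spinal cord. They passed the filter on low counts through brain alone and could only come out lower. *Gja1*, the gap junction protein connexin 43 on the astrocyte list, was at 62.8 and 158 CPM in brain and at 3.41, 7.53, 0 and 0 CPM in spinal cord (-4.66, SE 0.860, adjusted p = 0.0040), with 28 of 28 brain molecules in these wells. None of the 22 brain molecules of *Tmem179*, a membrane protein gene, lay in them, and *Pdgfra* had 20 of 426 there. Between the E13.5 brain experiments, newer minus older, *Cyp1b1* (-2.38, adjusted p = 0.012), *Gja1* (-1.78, adjusted p = 0.0027), *Igf2* (-1.48, adjusted p = 0.012) and *Col1a2* (-1.22, adjusted p = 0.037) also differed. *Dcn*, *Slc6a13*, *Edn3*, *Slc22a6* and *Vtn* were not called there. With the column style as a covariate *Cyp1b1*, *Gja1*, *Igf2*, *Col1a2* and *Vtn* lost the call, and *Dcn*, *Slc6a13*, *Edn3* and *Slc22a6* kept it.

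*Slc1a3*, a glutamate transporter of astrocytes and early glia, was at 603 and 937 CPM in brain and at 140, 108, 123 and 22.4 CPM in spinal cord (-2.82, SE 0.312, adjusted p = 3.1e-05). Of its 203 brain molecules 70 lay in the 9 wells, and without wells of this kind its difference was -2.33 (SE 0.323, adjusted p = 9.1e-05). It also differed between the 2 experiments of E13.5 brain (-2.12, SE 0.347, adjusted p = 5.7e-04). Of 12 astrocyte genes 4 were tested and 2 called, both lower (3.75% of all genes were lower). *Id3*, a target of bone morphogenetic protein signalling, was at 17.0, 25.1, 49.4 and 213 CPM against 220 and 201 CPM (-2.04, SE 0.599, adjusted p = 0.046), and *Egr1*, an immediate early gene, gave -1.19 (SE 0.348, adjusted p = 0.046). Without wells of the meningeal set *Id3* gave -1.0 (adjusted p = 0.41) and *Egr1* -0.22 (adjusted p = 0.82). With those 12 wells left out 434 genes were called, 264 higher and 170 lower, of which 338 were shared with the 442. *Pdgfra* was then at -1.89, *Mbp* at 2.34 and *Mag* at 2.97, each past the threshold.

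Other cell types were low. No endothelial, microglial or erythroid gene was abundant enough to be tested, none of 3 neuronal genes was called by edgeR or DESeq2 (2 were lower at an unadjusted p under 0.05), and the microglial list made up at most 0.0031% of the molecules of any of the 6 chips. The endothelial list made up 0.0548% on spinal cord chip 26 and at most 0.0044% on the other chips, and the mural list 0.227% on chip 26, 0.0214% to 0.0356% on the other spinal cord chips and 0.111% and 0.157% in brain. Of 10 Schwann cell genes 2 were tested, *Mal* and *Pmp22*, and neither was called.

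**Figure D5:**
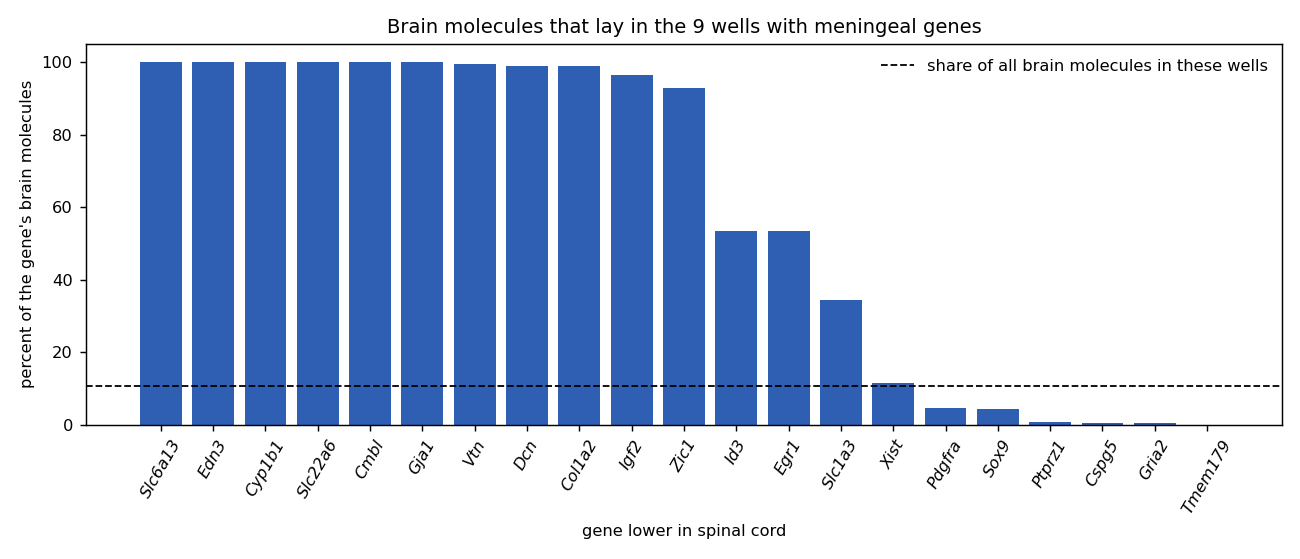
Percent of the brain molecules of 21 genes lower in spinal cord that lay in the 9 of 108 brain wells with meningeal genes. The dashed line is the share of all brain molecules in these wells (10.7%). The genes from *Slc6a13* to *Zic1* lie between 92.9% and 100%, and *Tmem179* is at 0.

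The groups also differed in sex-linked RNA, and sex and region cannot be told apart for most wells. *Xist*, which silences an X chromosome in female cells, was at 1326 and 1288 CPM in brain with 358 molecules, and had 1 molecule in spinal cord, a ratio of 1342 (95% counting interval 239 to 53147). *Tsix*, its antisense gene, had 67 molecules in brain and none in spinal cord, and their reads may be shared. A molecule of *Xist* or *Tsix* was found in 42 of 108 brain wells and 1 of 211 spinal cord wells, and one of 4 Y-linked genes in 26 and 137 wells. *Eif2s3y*, a Y-linked translation factor, gave 1.39 (SE 0.486, adjusted p = 0.089). Without wells holding *Xist* or *Tsix*, *Mbp*, *Cnp*, *Mag*, *Pdgfra* and *Ptprz1* were past the threshold, and *Mobp* (adjusted p = 0.079), *Cspg4* (adjusted p = 0.12) and *Hoxa5* (adjusted p = 0.099) were not.

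Besides *Mobp* and 3 Hox genes, the largest positive differences included *Ddc*, *Mcam*, *Rgs16*, *Tmem151a*, *Kndc1* and *Frmd4b*. The last 3 had 1 brain molecule each and lost the call without brain chip 21 or 22. *Ddc*, the decarboxylase that makes dopamine and serotonin, was at 78.4, 153, 65.8 and 78.3 CPM in spinal cord, in 26 wells, with no molecule on the 2 brain chips, at least 9.52-fold higher (adjusted p = 0.0029). The 9 traced brain chips held 53 *Ddc* molecules and reached 79.2 CPM, and against them *Ddc* gave 1.78 (SE 0.482, adjusted p = 0.012). *Rgs16*, a regulator of G protein signalling, was at 81.8, 221, 173 and 224 CPM with 1 molecule in brain, a ratio of 46.4 (95% counting interval 8.22 to 1844, adjusted p = 0.0010). Against the 9 traced brain chips, which reached 389 CPM, *Rgs16* gave 0.34 (SE 0.555, adjusted p = 0.76). *Mcam*, an adhesion protein of vessels and glia, was at least 4.71-fold higher (adjusted p = 0.044). Like *Ddc*, *Mcam* had no molecule in brain. Both genes passed the filter on low counts through spinal cord alone and could only come out higher. *Mcam* was too low for the test without chip 10 or 26. It lost the call without brain chip 21 (6.69) or 22 (6.75), and without wells holding *Xist* or *Tsix* (6.52, adjusted p = 0.096).

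Few genes of receptors and channels were called, where 7.96% of all genes were, so few calls would be looked for in lists of this size. Of 13 glutamate and GABA receptor genes tested, *Gria2* was lower and none was higher (median -0.95), and of 20 potassium, sodium and calcium channel genes none was called by edgeR or DESeq2 (median -0.45), while 1 was higher and 6 lower at an unadjusted p under 0.05. *Gria2*, an AMPA receptor subunit that limits calcium entry, was at 549, 700, 642 and 593 CPM in spinal cord and 1621 and 1446 CPM in brain (-1.31, SE 0.174, adjusted p = 2.1e-04). The receptor list made up 0.167% to 0.191% of molecules in spinal cord and 0.307% and 0.337% in brain.

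Ribosomal protein genes went both ways. Of 78 tested, 24 were higher in spinal cord, 6 lower and 48 not called, with a median of 0.44 (of all genes 4.21% were higher and 3.75% lower). Without brain chip 21, 5 were higher and 1 lower, and without brain chip 22, 14 were higher and none lower. The summed level was 4.92% to 6.40% against 4.82% and 5.32%, which overlapped. *Rps19* was at 797, 509, 539 and 772 CPM against 113 and 219 CPM (1.99, SE 0.319, adjusted p = 0.0011), while *Rps29*, among the most abundant, gave -0.28 (SE 0.198, adjusted p = 0.43). With the column style as a covariate, 3 ribosomal genes were called. Symbols of this family have near-identical copies among which molecules can be split, so single members are uncertain. Of 78 tested genes of oxidative phosphorylation, 1 was higher and 4 lower (median -0.03), a share of 6.41% called against 7.96% of all genes, and none was called without brain chip 21 or without brain chip 22. Values of the called genes included *Ndufs4* (-1.07, SE 0.250, adjusted p = 0.015) and *Ndufa12* (0.91, SE 0.244, adjusted p = 0.031), both subunits of complex I, and neither passed against the traced chips (-0.09, adjusted p = 0.85, and -0.16, adjusted p = 0.75). *Ptpn11*, a phosphatase of growth factor signalling, was the 1 gene of 16 tested on that list higher in spinal cord (1.35, SE 0.375, adjusted p = 0.036), where 4.21% of all genes were. It lost the call without chip 10 (1.35, adjusted p = 0.058) and without wells holding *Xist* or *Tsix* (0.96, adjusted p = 0.17). The call was also lost without brain chip 21 (1.86) or 22 (1.12). No gene of the Notch list (10 tested) was called by edgeR or DESeq2, where edgeR called 7.96% of all genes. At an unadjusted p under 0.05, 1 Notch gene was higher and 1 lower. Of 3 replication histone genes tested, *Hist1h2ah* was higher (adjusted p = 0.037), with 2 molecules in brain and 81 in spinal cord, a ratio of 10.8 (95% counting interval 2.90 to 90.7). *Hist1h2ah* lost the call by DESeq2 (3.31, adjusted p = 0.089), without brain chip 21 (3.08) or 22 (3.53), and without chip 11 (3.31, adjusted p = 0.055). Without chip 10 or 12 it was too low for the test. Chip 26 held 1 of its molecules, as did each brain chip, and 1 well held 20 of the 37 on chip 10.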

How the data were processed

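Molecule counts per gene and well were deposited by the authors, 1 table for each chip of 96 wells, with no normalization and nothing pooled. They come from STRT-seq with molecular identifiers. Per the submitters' processing notes the genome build was mm10. For the single-cell data, aligner and annotation: not given in the sources used here. Each table lists 24487 rows, of which 24341 were kept after mitochondrial rows (37), ERCC spike-ins (92) and other spike-in and marker rows were set aside. Copy suffixes mark 1207 rows as locus copies of a symbol, which were kept as separate genes.

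Groups followed the labels, except for chip 9, which was left unassigned and entered no fit. The chip was the replicate. Wells with at least 1000 molecules were kept, no doublet caller was run, and counts were summed per chip. The study checked its chips for doublets and set aside cells that held genes of 2 types together. Wells that held gene sets of 2 cell types were left out as an alternative. The sums held 89363 to 398533 molecules per chip. Of 95 plate positions kept on any chip, 93 were kept on more than 1 chip, and no well held the same counts as another.

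The comparison of 4 spinal cord with 2 brain chips used edgeR 4.0.16 (glmQLFit and glmQLFTest, filterByExpr, TMM, two-sided) in R 4.3.3, with Benjamini-Hochberg adjustment over all genes tested and a threshold of 0.05. On simulated counts for the 5552 genes of this comparison, 151 of 200 genes changed by a log2 fold of 2 were recovered (75.5%), with 5 false calls. Shares of wells and chip medians were compared by two-sided exact permutation tests (scipy 1.17.1). Thinning drew 1000 molecules from each well with random seed 1. Intervals of 95% (exact) and limits of 3 counts cover counting error only. DESeq2 1.42.0, limma 3.58.1, Python 3.11.15, numpy 2.4.6, pandas 2.3.3 and matplotlib 3.10.9 were also used.

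Named genes were the 10 largest changes in each direction among called genes with at least 50 CPM in the higher group and no overlap between chips, the best called and the most abundant uncalled members of each list, genes that the study names for these regions, and sex-linked genes. Some genes that this rule names are not reported here. The chips, lists and genes were chosen with earlier results of these data known. Alternatives were the filter, DESeq2, the scaling, the molecule minimum, thinning, left-out wells (sets of 2 cell types, *Xist* or *Tsix*), other chips, the column style as a covariate, a fit over all chips of the strain, and each chip left out in turn. Chips 9 and 23 were in neither the fit with the column style nor the fit over all chips of the strain. Leaving out wells with meningeal genes was added after the data had been seen.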

Additional observations from a re-analysis of the deposited data

Results flagged for a closer look

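In a group of 4 chips a value was singled out where the highest or the lowest chip lay far from the other 3 (Dixon's 95% criterion). Among the spinal cord chips, 21 of 122 groups of values met it, and chance flags about 1 in 20 groups. No cause was tested.

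Chip 10 was the high chip for genes of late oligodendrocytes. It held 637.2 CPM of *Mobp*, 425.9 CPM of *Mog*, 1046.1 CPM of *Mal*, 47.7 CPM of *Opalin*, 531.5 CPM of *Tspan2* and 671.2 CPM of *Trf*. *Opalin* was seen in 3.509% of its wells and in none of the other spinal cord chips. The Schwann cell list, which also holds *Mal*, made up 0.109% of its molecules. *Mag* was seen in 24.56% of wells of chip 12, below the other spinal cord chips.

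Chip 11 was the high chip for 3 genes of the meningeal list, with 5.018 CPM of *Slc6a13*, 45.17 CPM of *Dcn* and 180.7 CPM of *Col3a1*. It was also high for *Edn3* (7.528 CPM) and *Ddc* (153.1 CPM), and held the 1 spinal cord molecule of *Xist*, which is 2.509 CPM. *Igf2*, on the meningeal list too, was not flagged and was highest on chip 26 (201.4 CPM, against 105.4 CPM on chip 11). Chip 26, the chip with the fewest wells, was high for *Id3* (212.6 CPM), for the mural list (0.2272% of molecules), for the endothelial list (0.05483%) and for the erythroid list (0.001119%, which is 1 molecule). It was low for the shares of wells with *Ptprz1* (55.56%) and *Top2a* (14.81%).

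A row for the GFP marker, which enters no comparison here, held molecules in 55 wells of the 6 chips, 40 in spinal cord and 15 in brain. Per chip these were 19, 19, 14 and 5 molecules in spinal cord and 12 and 9 in brain.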

How the results depend on the processing

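The count of 442 genes was 641 without a filter on low counts, 379 by DESeq2, 430 with DESeq2 size factors, 435 scaled by total molecules, 364 with at least 2000 molecules per well and 409 without genes also called between E13.5 experiments. It was 145 (of 1652 tested) after thinning, 213 without wells that held sets of 2 cell types, 330 without *Xist* or *Tsix* wells, 434 without meningeal wells (chosen after seeing the data), 921 with the traced brain chips added, 928 with them in place of the brain chips, 144 with all chips of the strain in 1 fit, 72 with the column style as a covariate, and 1 with chip 23 added (593 at an unadjusted p under 0.05). Leaving out single chips gave 135 to 526. With 1 brain chip left, that chip is assumed to vary like the spinal cord chips. The cause of these moves was not tested.

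Over all alternatives, 1069 values of named genes kept direction and side of the threshold, 248 fell short of it, 36 newly passed it and 46 changed sign. The sign changes follow, as log2 differences. With the column style as a covariate they were *Mbp* (-2.32), *Nfasc* (-0.76), *Enpp2* (1.38), *Tspan2* (-2.0), *Pdgfra* (0.61), *Cntn1* (0.76), *Olig1* (0.93), *Bcan* (0.58), *Cspg4* (2.64), *Cd9* (0.01), *Sox2* (-1.39), *Fdps* (-5.72), *Hmgcs1* (-0.23), *Top2a* (0.11), *Rps29* (0.03), *Gpr17* (4.17) and *Sox8* (3.59), the last 2 past the threshold. With chip 23 added they were *Bmp4* (-0.0), *Nr2f1* (0.04), *Col1a2* (1.19), *Col3a1* (2.02), *Gja1* (1.07), *Top2a* (0.01) and *Egr1* (0.86). *Enpp2* was at 0.02 without the filter, 0.07 with at least 2000 molecules, and 0.1 and 0.11 with the traced chips added or in place. *Cntn1* was at 0.06 with at least 2000 molecules, and at 0.05 and 0.06 with the traced chips. *Top2a* was at 0.52 with at least 2000 molecules, 0.1 without *Xist* or *Tsix* wells, and 0.28 and 0.35 with the traced chips. *Sox8* was at 0.04 and 0.05 with the traced chips. *Ndufa12* was at -0.16 with the traced chips in place. Leaving out single chips gave -0.35 to 0.08 for *Enpp2*, -0.51 to 1.68 for *Trf*, -0.23 to 0.06 for *Cntn1*, -0.01 to 0.59 for *Bmp4*, -1.15 to 0.32 for *Nr2f1*, -0.49 to 0.24 for *Sox8* and -0.52 to 0.35 for *Top2a*.

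In shares of wells, differences in percentage points changed sign for *Ptprz1* (-14.42 thinned, -15.6 with chip 23), *Neu4* (-0.5807 and -4.282), *Top2a* (-1.421 thinned), *Col1a2* (11.29 with chip 23) and *Gpr17* (3.349 with at least 2000 molecules, 0.4296 with the traced chips added). Without single chips they ran from -3.005 to 10.38 for *Ptprz1*, -2.114 to 8.297 for *Neu4* and -5.407 to 4.611 for *Gpr17*.

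No paired analysis was possible because the groups share no replicate number (10, 11, 12 and 26 against 21 and 22).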
